A study of Homo sapiens with 24 samples.

Results

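The nuclear-encoded genes of the mitochondrial respiratory chain were followed through 3 RNA sequencing experiments in BT549 cells. The set held 81 of the 18152 genes listed in at least 1 of the 3 experiments' tables. Its members were chosen by gene symbol alone: the NDUFA, NDUFB, NDUFC, NDUFS and NDUFV genes, SDHA to SDHD, the UQCR genes and CYC1, the numbered COX subunit genes and the ATP5 genes, with pseudogenes left out. By complex, 36 members belong to complex I, 4 to complex II, 10 to complex III, 12 to complex IV and 19 to complex V. NDUFA4 was counted with complex IV, of which it is a subunit despite its name.

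All 24 libraries came from BT549, a human cell line of triple negative breast cancer, labelled wild type in genotype and as biological replicates, 3 in each of 8 groups. The knockdown groups were siMYC, treated for 72 h with pooled siRNAs that target the transcription factor MYC, and the control siCtl. In the inhibitor experiment cells received 40 µM KJ-PYR-9, a compound that inhibits MYC, for 3 h, or KJ-PYR-9 with a treatment labelled DEX (KJ-PYR-9+DEX), DEX alone, or vehicle (VEH); the labels give DEX no full name, dose or time. In the MB-3 experiment cells received 100 µM MB-3, which inhibits the acetyltransferase GCN5 encoded by KAT2A, for 3 h (MB3), or a further vehicle (VEH2). Library MB3 1 is MB3 by its treatment field, while its title reads MED3. Each experiment was compared with its own control only.

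Complex I (NADH dehydrogenase) and complex II (succinate dehydrogenase, also an enzyme of the TCA cycle) pass electrons to ubiquinone, complex III passes them on to cytochrome c, and complex IV hands them to oxygen. Complexes I, III and IV pump protons while doing so, and complex V, the ATP synthase, uses the proton gradient to make ATP. All subunits of complex II come from nuclear genes, while the other complexes also hold subunits encoded in mitochondrial DNA. MYC, NRF1, GABPA and YY1 are transcription factors known to act on nuclear genes of the respiratory chain.

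Values were normalized read counts of RNA depleted of ribosomal RNA, and the recovered depth ran from 5.582 to 30.76 M reads per library. Differences are log2 fold changes of value + 1, tested with limma, and a gene was called at a Benjamini-Hochberg adjusted p under 0.05 over all genes tested. Genes with a mean under 10 were left out of the tests. In bulk RNA, fewer cells of a kind and less RNA per cell cannot be told apart. Reads on features without a gene name made up 26.04% of library DEX 1 and 8.72% of KJ-PYR-9+DEX 3, while the VEH libraries held 1.62% to 1.86%. MYC was 1655, 1789 and 1710.3 in siMYC and 2313, 2269 and 2138 in siCtl, lower in every siMYC library but with an adjusted p of 0.0587 for a log2 fold change of -0.38. In the inhibitor experiment it was 10272, 8283 and 11004 in KJ-PYR-9, 4304, 3666 and 4510.3 in KJ-PYR-9+DEX, 19573, 16916 and 18783 in DEX and 1551, 1378 and 2489.8 in VEH. The mesenchymal markers VIM, CDH2, FN1 and SPARC were detected in every library, with VIM at 9614 or more. ERBB2, which is not amplified in triple negative cells, was detected as well, at 559 or more. Of other cell types, the leukocyte genes PTPRC and CD68 reached at most 39.2 and 48.2 and the hepatocyte gene ALB at most 6.10. The marker lists also held ESR1, PGR, CD3E, PECAM1 and CDH5, which are not reported here, so the check of cell type is partial. CD68 was 23.8, 45.4 and 48.2 in siMYC and 8.89, 7.63 and 20.1 in siCtl, a log2 fold change of 1.66 ± 0.41 (SE, adjusted p = 0.0399), and its part in the results was not tested.

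Per kilobase of transcript, the members covered a wide range of levels in the control cells. In VEH the beta subunit of ATP synthase, ATP5F1B, stood highest at 3878 ± 417 normalized read counts per kb (SD, n = 3), followed by the complex III hinge subunit UQCRH at 3690.5 ± 84.9 and the complex I subunit NDUFS5 at 3601 ± 386. These neighbours differed by less than the spread between the replicates. The complex medians in VEH were 579 per kb for complex I, 248 for complex II, 597 for complex III, 1163 for complex IV and 1115 for complex V. Lowest were the testis-type complex IV subunit COX6B2 at 2 ± 0.258 and ATP5MGL at 3.36 ± 0.847 per kb. ATP5F1B was also the highest member per kb in siCtl (6286 ± 532) and in VEH2 (4786 ± 176). UQCRHL is a near identical copy of UQCRH, and ATP5MGL of ATP5MG, so reads may have been divided between these genes.

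Promoter windows of 300 bases, 250 before and 50 after the gene start, were found in RefSeq (GRCh38.p14) for 65 of the 81 members. They were searched on both strands for CGCNTGCG (NRF1), CCGGAAGT (GABPA and other ETS factors), AAGATGGCG (YY1) and CACGTG (the E-box bound by MYC). The NRF1 letters stood in 23 of the 65 windows (35.4%), against 14.3% of 15843 protein-coding promoters of the same length. The ETS letters stood in 10 (15.4%), against 6.19%, and the YY1 letters in 8 (12.3%), against 2.74%. The E-box stood in 7 (10.8%), against 8.88%. By complex, the NRF1 letters were in 4 of 7 windows of complex III and in 1 of 10 of complex IV. No member's window held 2 of these motifs that overlapped.
The windows below belong to members whose levels moved apart in the inhibitor experiment, with motif matches in capitals; SDHA lies at chr5:218070-218369 and NDUFS7 at chr19:1383657-1383956, and both were higher with KJ-PYR-9, while SDHD, at chr11:112086623-112086922, and NDUFA5, at chr7:123601602-123601901, were lower. NDUFA5 is on the minus strand and the other 3 are on the plus strand.
SDHA: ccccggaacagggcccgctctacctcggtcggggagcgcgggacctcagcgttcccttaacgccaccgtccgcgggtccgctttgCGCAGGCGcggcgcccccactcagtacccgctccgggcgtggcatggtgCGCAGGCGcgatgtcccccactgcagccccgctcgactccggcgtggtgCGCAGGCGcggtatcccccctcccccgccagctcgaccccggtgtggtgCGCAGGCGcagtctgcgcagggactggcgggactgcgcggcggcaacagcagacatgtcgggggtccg
SDHD: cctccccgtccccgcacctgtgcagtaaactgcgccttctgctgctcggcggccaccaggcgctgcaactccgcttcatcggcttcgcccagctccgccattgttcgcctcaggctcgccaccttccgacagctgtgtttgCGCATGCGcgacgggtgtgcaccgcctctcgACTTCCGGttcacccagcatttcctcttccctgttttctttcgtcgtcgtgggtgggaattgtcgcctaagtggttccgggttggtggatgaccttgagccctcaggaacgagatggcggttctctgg
NDUFS7: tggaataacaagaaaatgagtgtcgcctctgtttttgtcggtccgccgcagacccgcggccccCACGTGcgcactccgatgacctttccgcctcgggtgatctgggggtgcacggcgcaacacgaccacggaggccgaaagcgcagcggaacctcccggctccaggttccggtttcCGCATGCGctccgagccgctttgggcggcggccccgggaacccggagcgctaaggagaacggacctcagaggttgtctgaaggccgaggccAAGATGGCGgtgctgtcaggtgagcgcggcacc
NDUFA5: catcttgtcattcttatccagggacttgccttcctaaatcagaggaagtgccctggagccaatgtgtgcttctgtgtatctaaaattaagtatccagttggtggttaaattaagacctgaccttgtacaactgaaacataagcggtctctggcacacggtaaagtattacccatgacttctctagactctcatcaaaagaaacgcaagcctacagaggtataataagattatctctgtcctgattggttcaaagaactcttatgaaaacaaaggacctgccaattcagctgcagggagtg
The SDHA window held 4 NRF1 matches, and the SDHD window held 1 NRF1 match and 1 ETS match. The NDUFS7 window held 1 E-box, 1 NRF1 match and 1 YY1 match, and the NDUFA5 window held none of the 4 motifs. This NDUFA5 window lies at the outer end of the gene's RefSeq span (chr7:123536997-123601651), which overlaps ASB15. Other transcript starts of these genes were not searched, so motifs there would be missed. Of the members called higher with KJ-PYR-9, 8 of 24 windows held the NRF1 letters and 1 the E-box, and of those called lower 3 of 7 held the NRF1 letters and 0 the E-box. Of the members not called, 12 of 32 windows held the NRF1 letters and 5 the E-box. A match describes the letters in these windows, not binding in these cells.

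In the knockdown, nearly all members kept levels that could not be told from the control. Of 81 members tested, 1 was called higher in siMYC and 1 lower, against 16.1% of the 14788 genes tested (11.4% higher and 4.78% lower). The median member log2 fold change was -0.06, beside 0.05 over all genes tested, and 54 of the 81 values were negative.
The called member of complex I was NDUFB9, an accessory subunit of the membrane arm. Its normalized read counts were 1873, 2117 and 1687 in siMYC and 2648, 2707 and 2815 in siCtl. All siMYC libraries lay below all siCtl libraries, with a log2 fold change of -0.53 ± 0.13 (SE, adjusted p = 0.0379). The other called member was COX7A1, the heart and muscle form of a small subunit of complex IV. It had 103, 109 and 116 in siMYC and 74.1, 53.4 and 81.1 in siCtl, so that it was low in both groups but higher in every siMYC library, by 0.67 ± 0.18 (SE, adjusted p = 0.049). With trends on GC content and length of the transcript removed, COX7A1 was no longer called, while NDUFB9 was. Neither edgeR nor DESeq2 called any member higher. The siMYC log2 fold change correlated with GC content at 0.33 over 14384 genes and at 0.06 over the 81 members. The testis-type COX6B2 had 11.9, 21.8 and 29.7 in siMYC and 10.9, 12 and 5.85 in siCtl, at 1.03 ± 0.37 (SE, adjusted p = 0.101), and was not called. The widely expressed counterpart of COX7A1, COX7A2, had 2084, 2167 and 1663 in siMYC and 1852, 1809.6 and 1866 in siCtl, with overlap between the groups and a log2 fold change of 0.09 ± 0.14 (SE, adjusted p = 0.676).
Complex V had the lowest median of the 5 complexes, -0.22, with 14 of 19 values negative and none called. The 3 genes for the c subunit of the membrane ring, which encode the same mature protein, gave -0.49 for ATP5MC1, -0.22 for ATP5MC2 and -0.23 for ATP5MC3, each with overlapping groups and adjusted p values of 0.151, 0.386 and 0.325. ATP5F1D, the delta subunit of the catalytic head, had 839, 913 and 811 in siMYC and 1060.1, 1086 and 1123 in siCtl. These groups did not overlap, at an adjusted p of 0.0751. The core subunit UQCRC2 of complex III had 2132, 2045 and 1727 in siMYC and 2592, 2593 and 2882 in siCtl, again without overlap, at -0.45 ± 0.13 (SE, adjusted p = 0.0601). The complex II genes gave -0.03 for SDHA, -0.21 for SDHB, 0.28 for SDHC and -0.06 for SDHD, none called.
The count of called members rested on the test used: edgeR on the recovered reads called 9 members lower and 0 higher, against 8.24% of all genes lower, and DESeq2 11 lower and 0 higher, against 11.9% lower. Without siMYC 1 there were 5 calls, without siMYC 2 there was 1, and without siMYC 3 or any one of the siCtl libraries there were 0. These counts have no share of all genes beside them.

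**Figure D1:**
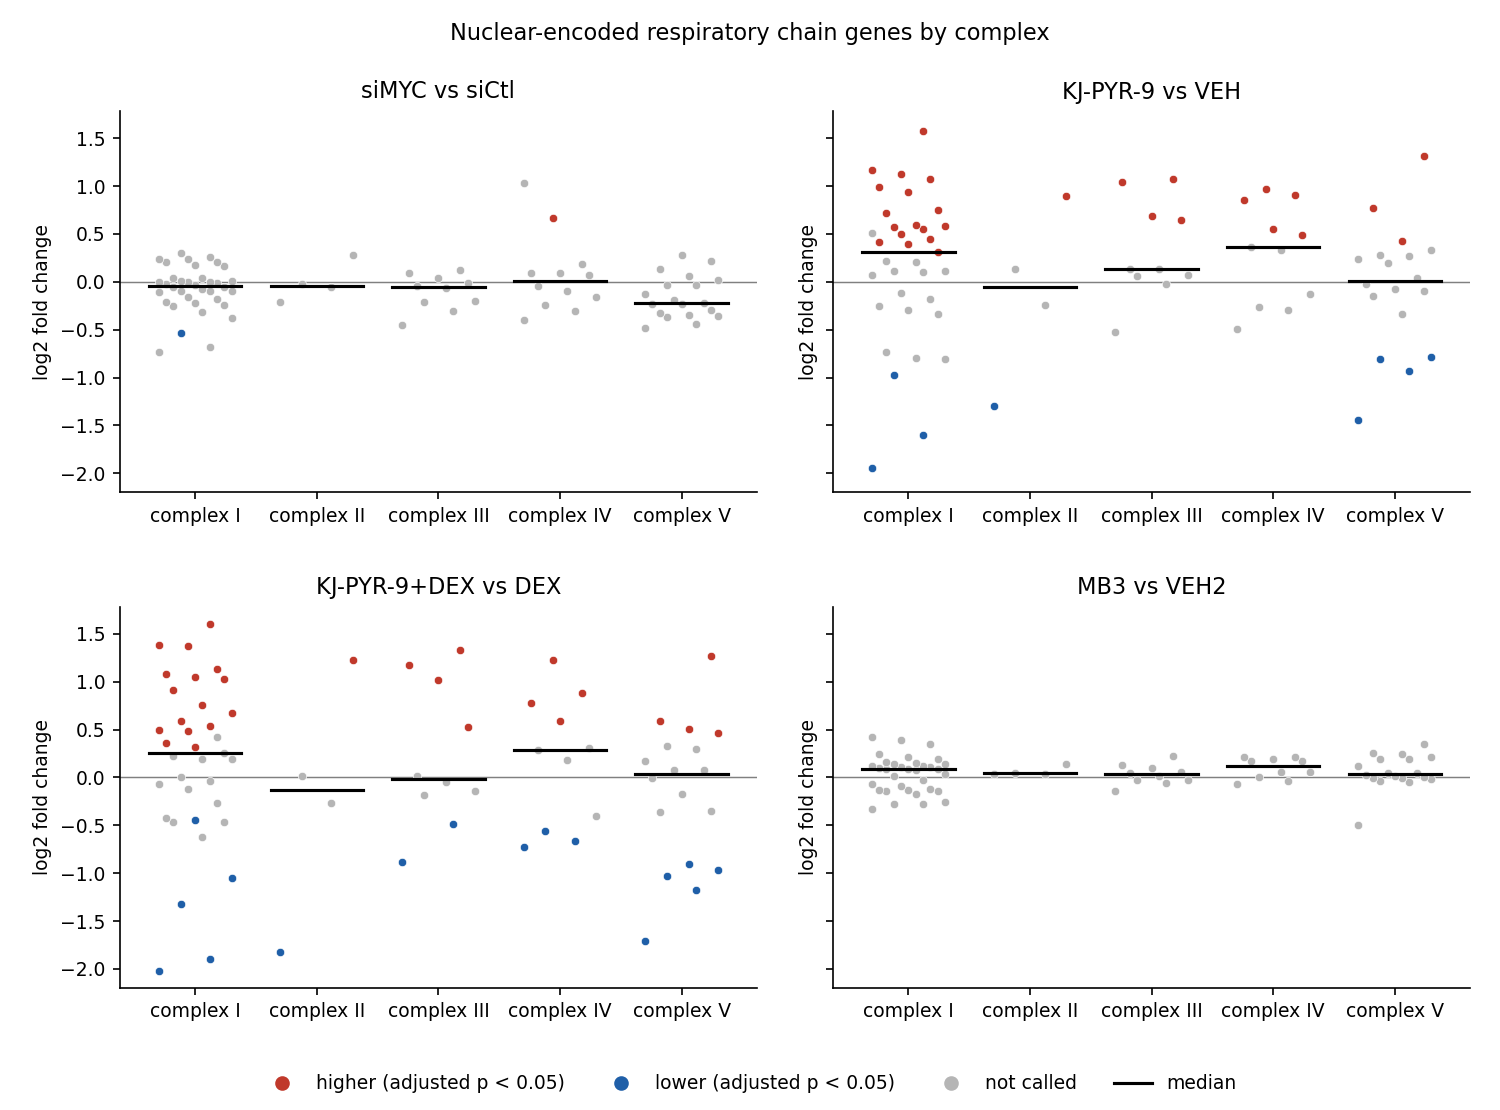
Log2 fold change of each member (points) by complex in 4 comparisons, with members called higher in red, called lower in blue and not called in grey; black bars are medians of each complex. In KJ-PYR-9 against VEH, 30 members stand in red and 8 in blue, while siMYC against siCtl has 1 of each and MB3 against VEH2 has 0.

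Under KJ-PYR-9, of 78 members tested, 30 were called higher than in VEH and 8 lower, against 25.4% higher and 17.5% lower among the 13616 genes tested (42.9% called in all), and 40 were not called. The share of members called, 48.7%, was close to that background. The median member log2 fold change was 0.20, beside 0.06 over all genes tested, and with quantile scaling it was 0.043, beside -0.02. In all 38 called members, the 3 KJ-PYR-9 libraries lay outside the range of the 3 VEH libraries. The call itself favours such separation, so it is not further evidence, and its share among all called genes was not counted. NDUFA7, COX6B2 and ATP5MGL had means under 10 and were not tested. Without VEH 1 the counts were 19 higher and 5 lower (16.9% and 8.74% of all genes), and with the replicate number as a block 32 higher and 15 lower (32.2% and 25.8% of all genes). Without DEX 1 and KJ-PYR-9+DEX 3, the libraries with most reads on unnamed features, 33 were called higher and 13 lower (30.4% and 23.8% of all genes). The plot by complex shows the spread within each complex.

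In complex I, the largest of the complexes, 17 of 35 tested members were called higher and 3 lower, with a median of 0.31. The share called higher was 48.6%, near the 45.5% of complex IV and the 40% of complex III. Over all genes tested 25.4% were higher and 17.5% lower, which is the background for each complex below. Of its 7 core subunits, which carry the flavin and the iron-sulfur clusters, 5 rose. NDUFS7, which carries the last iron-sulfur cluster before ubiquinone, had 1588, 1821 and 2052 normalized read counts in KJ-PYR-9 and 560.1, 629 and 638 in VEH. The lowest KJ-PYR-9 library was far above the highest VEH library, and the log2 fold change of 1.57 ± 0.21 (SE, adjusted p = 0.000761) was the largest rise among the members. NDUFS8, another iron-sulfur subunit, had 2147, 2448 and 2523 in KJ-PYR-9 and 1009.6, 1062 and 1178 in VEH, higher by 1.13 ± 0.16 (SE, adjusted p = 0.00105). NDUFV1, which binds NADH and the flavin, had 3648, 3887 and 3924 in KJ-PYR-9 and 1633, 1868 and 1966 in VEH, higher by 1.07 ± 0.16 (SE, adjusted p = 0.00138). In all these core genes the groups were separate.
NDUFV2, the iron-sulfur partner of NDUFV1, moved the other way. It had 30.1, 30.9 and 23.5 in KJ-PYR-9 and 63.6, 60.3 and 45.3 in VEH, all KJ-PYR-9 libraries being below all VEH libraries, with a log2 fold change of -0.97 ± 0.19 (SE, adjusted p = 0.0034). The remaining core gene, NDUFS1, was not called (-0.25, adjusted p = 0.298).
Among the 28 accessory subunits tested, 12 rose and 2 fell. NDUFB7 and NDUFB10 of the membrane arm rose by 1.17 ± 0.17 (SE, adjusted p = 0.00112) and 0.99 ± 0.16 (SE, adjusted p = 0.00193). NDUFC2, also of the membrane arm, had the largest fall among the members: 53.9, 57.7 and 28.4 in KJ-PYR-9 and 160.1, 192 and 173 in VEH, a log2 fold change of -1.95 ± 0.35 (SE, adjusted p = 0.00271). NDUFA5, of the matrix arm, had 75.3, 86.8 and 59.2 in KJ-PYR-9 and 265, 236 and 178 in VEH, lower at -1.60 ± 0.35 (SE, adjusted p = 0.00604). In both genes the highest KJ-PYR-9 library was below the lowest VEH library. NDUFB3, NDUFB5 and NDUFB1 gave -0.80, -0.80 and -0.73 and were not called, at adjusted p values of 0.0608, 0.127 and 0.0616.

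Of the 4 genes of complex II, 1 rose and 1 fell. SDHA, the flavoprotein that oxidises succinate, had 1414, 1378 and 1684 in KJ-PYR-9 and 783, 795 and 819 in VEH. SDHD, one of the membrane anchors, had 87.8, 122 and 77 in KJ-PYR-9 and 240.3, 266 and 195 in VEH. Neither gene's groups overlapped, and the log2 fold changes were 0.90 ± 0.15 (SE, adjusted p = 0.00222) for SDHA and -1.29 ± 0.28 (SE, adjusted p = 0.0054) for SDHD. The iron-sulfur subunit SDHB had 914, 994 and 859.9 in KJ-PYR-9 and 821, 919 and 786 in VEH, and the other anchor SDHC had 403, 446 and 279.6 in KJ-PYR-9 and 399, 459 and 458 in VEH. Both of these overlapped between groups, at 0.13 and -0.25, and neither was called.

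In complex III, 4 of 10 members rose and 0 fell, with a median of 0.13. CYC1, the cytochrome c1 that passes electrons to cytochrome c, had 6744, 8109 and 7876 in KJ-PYR-9 and 3334, 4296 and 3478 in VEH. UQCRC1, a core subunit, had 4143, 4493 and 4542 in KJ-PYR-9 and 2020.4, 2099 and 2151 in VEH. Every KJ-PYR-9 library exceeded every VEH library in both, by 1.04 ± 0.15 (SE, adjusted p = 0.00138) for CYC1 and 1.07 ± 0.13 (SE, adjusted p = 0.000562) for UQCRC1. Its core partner UQCRC2 had 1547, 1598 and 1350.3 in KJ-PYR-9 and 1423, 1537 and 1321 in VEH, with overlap and a log2 fold change of 0.07 ± 0.14 (SE, adjusted p = 0.698). UQCRQ and UQCRHL were the other members called higher, by 0.69 and 0.65, while UQCRH itself gave 0.13 (adjusted p = 0.496). UQCRB had the lowest value of the complex, -0.53, and was not called (adjusted p = 0.128).

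In complex IV, 5 of 11 tested members rose and 0 fell, with a median of 0.36. COX8A, a small membrane subunit, had 2841, 3194 and 2849 in KJ-PYR-9 and 1408, 1688 and 1650.5 in VEH, and COX6B1, which faces the intermembrane space, had 2343, 2538 and 2631 in KJ-PYR-9 and 1259, 1459.5 and 1447 in VEH. Both were higher in every KJ-PYR-9 library, by 0.91 ± 0.17 (SE, adjusted p = 0.0031) for COX8A and 0.85 ± 0.15 (SE, adjusted p = 0.00233) for COX6B1. Of the tissue forms of subunit 7A, COX7A1 had 74, 84.4 and 70.5 in KJ-PYR-9 and 38.2, 42.7 and 34.4 in VEH, higher by 0.97 ± 0.24 (SE, adjusted p = 0.0104). COX7A2 had 635, 712 and 473 in KJ-PYR-9 and 812, 918 and 800.2 in VEH, below VEH in every library, at -0.49 ± 0.26 (SE, adjusted p = 0.138), which did not pass the test. COX7B and COX6A1 rose by 0.56 and 0.48. COX4I1, a complex IV subunit outside the symbol rule, rose by 0.71 ± 0.15 (SE, adjusted p = 0.00432). Cytochrome c (CYCS), the carrier between complexes III and IV, had 904, 979 and 718 in KJ-PYR-9 and 1592, 1952 and 1394 in VEH and was lower at -0.92 ± 0.31 (SE, adjusted p = 0.0331).

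Of 18 tested members of complex V, 3 rose, 4 fell and 11 were not called, with a median of 0.01. Of the catalytic head, ATP5F1D had 2218, 2827 and 2667 in KJ-PYR-9 and 924, 1123 and 1044 in VEH, a rise of 1.32 ± 0.20 (SE, adjusted p = 0.0016). The alpha subunit ATP5F1A rose by 0.42 ± 0.13 (SE, adjusted p = 0.021), though with quantile scaling it stood at -0.11 and was not called, while the beta subunit ATP5F1B gave 0.33 (adjusted p = 0.0724). The gamma subunit ATP5F1C was at -0.33 and was not called, and with quantile scaling at -0.56 and called (adjusted p = 0.0324). Of the c ring, ATP5MC2 had 2128, 2269 and 2174 in KJ-PYR-9 and 1206, 1381 and 1271 in VEH and rose by 0.77 ± 0.11 (SE, adjusted p = 0.00117). The other 2 c-ring genes were not called, at -0.09 for ATP5MC1 and 0.27 for ATP5MC3.
ATP5MK, a membrane subunit of the dimer interface, had 416, 494 and 288 in KJ-PYR-9 and 1135, 1145 and 921 in VEH, lower at -1.44 ± 0.43 (SE, adjusted p = 0.0215). ATP5PF, of the stalk, had 246, 275 and 156 in KJ-PYR-9 and 437, 451 and 374 in VEH, lower at -0.93 ± 0.26 (SE, adjusted p = 0.0164). In both the KJ-PYR-9 libraries lay below the VEH libraries. The stalk gene ATP5PD gave -0.81 ± 0.22 (SE, adjusted p = 0.0149) and the membrane gene ATP5MG gave -0.79 ± 0.29 (SE, adjusted p = 0.0475). The other 2 stalk genes, ATP5PO and ATP5PB, gave -0.15 and -0.07 and were not called.

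**Figure D2:**
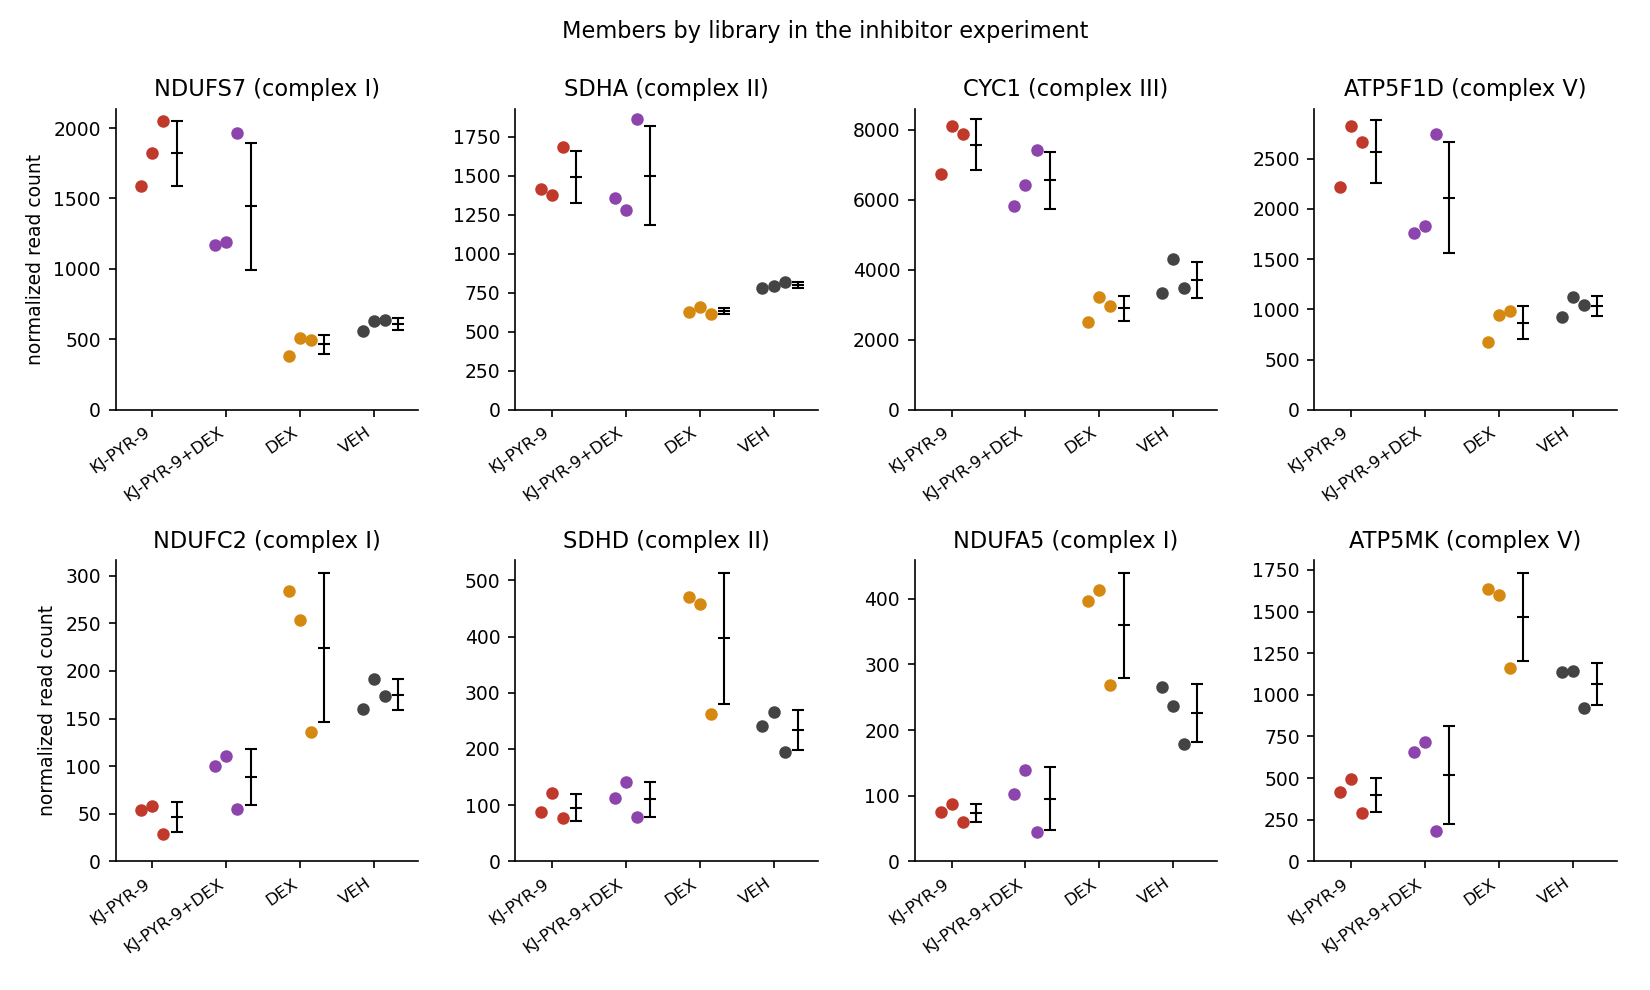
Normalized read counts of 8 members in the 12 libraries of the inhibitor experiment, points being libraries and bars the mean ± SD (n = 3). NDUFS7, SDHA, CYC1 and ATP5F1D stand above VEH in every KJ-PYR-9 and KJ-PYR-9+DEX library, and NDUFC2, SDHD, NDUFA5 and ATP5MK below it.

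Base composition moved with these fold changes. Across the 78 members the correlation of the KJ-PYR-9 log2 fold change with the GC content of the transcript was 0.70, and across the 13298 genes with a known transcript it was 0.66. Members called higher had a median GC content of 55.7% (41.7% to 69.3%), members called lower 45.1% (36.4% to 47.5%) and the rest 48.4%. When trends on GC content and length were removed in each library, 26 members were called higher and 8 lower, of which 24 and 7 were among the calls above. The background then was 16.4% higher and 8.26% lower of 13298 genes. NDUFS7 then had a log2 fold change of 0.92 and ATP5F1D of 0.57, and both were still called. Members no longer called included ATP5MG, COX6A1, COX7A1, NDUFB11, NDUFS3 and UQCRQ.

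**Figure D3:**
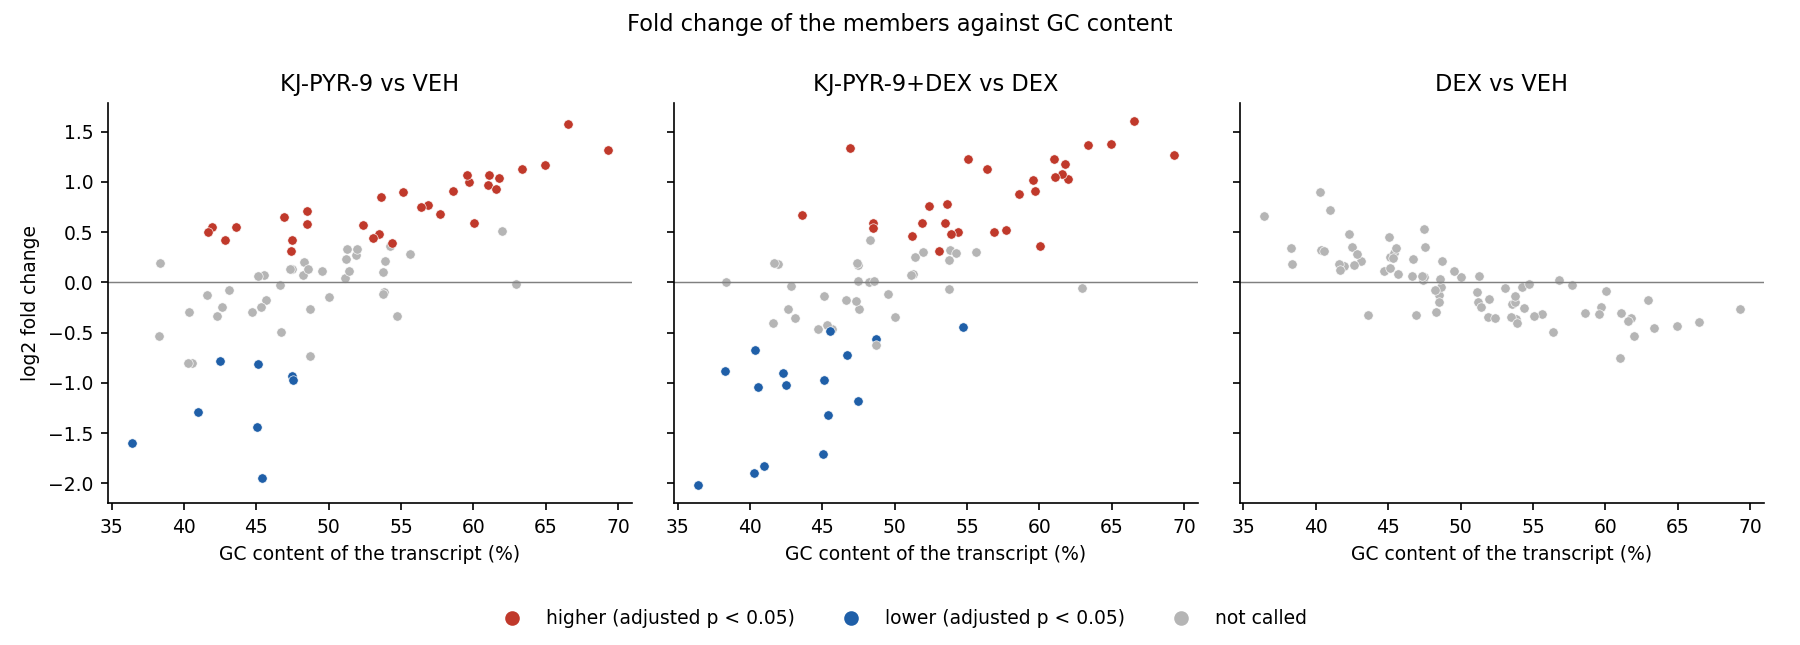
Log2 fold change of each of 78 members against the GC content of its transcript in 3 comparisons of the inhibitor experiment; red and blue points were called higher and lower. The correlation was 0.70 in KJ-PYR-9 against VEH, 0.76 in KJ-PYR-9+DEX against DEX and -0.77 in DEX against VEH.

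KJ-PYR-9 given with DEX was compared with DEX alone. These groups share no library with KJ-PYR-9 and VEH. Here 29 members were called higher and 16 lower, against 33.6% higher and 35.1% lower of the 13616 genes (68.7% called in all). The median was 0.18, beside 0.00 over all genes tested. Of the 30 members that rose with KJ-PYR-9 against VEH, 25 rose here, which is 83.3% of those 30 and 86.2% of the 29. Of the 8 that fell, 7 fell here, which is 87.5% of the 8 and 43.8% of the 16. No member was called in opposite directions. Over all genes tested the corresponding shares were 72.6% and 54.9% of the genes that rose and 76.0% and 37.8% of those that fell. With GC content and length trends removed, 19 members were called higher and 10 lower (13.6% and 17.4% of all genes), and of the calls above 10 of the 29 rises and 8 of the 16 falls were kept. Without DEX 1 and KJ-PYR-9+DEX 3 there were 25 higher and 8 lower (25.3% and 27.8% of all genes), and with the replicate block 33 higher and 23 lower (37.1% and 38.2%).
In complex I, NDUFS7 had 1171, 1195 and 1967 in KJ-PYR-9+DEX and 384, 512 and 497 in DEX, higher in every library by 1.60 ± 0.21 (SE, adjusted p = 0.000171). NDUFA5 had 102, 139 and 45.2 in KJ-PYR-9+DEX and 397, 414 and 268 in DEX, the largest fall, at -2.02 ± 0.35 (SE, adjusted p = 0.000659). NDUFB5, a membrane arm subunit not called with KJ-PYR-9 alone, had 108, 106 and 37.3 in KJ-PYR-9+DEX and 394, 338 and 173 in DEX and was lower at -1.90 ± 0.40 (SE, adjusted p = 0.00186). In each of these genes KJ-PYR-9+DEX 3 was the library farthest from DEX. NDUFB7 and NDUFS8 were higher by 1.38 and 1.37, and NDUFC2 and NDUFB3 were lower at -1.32 and -1.05.
In complex II, 1 gene again rose and 1 fell. SDHA had 1354, 1281 and 1865 in KJ-PYR-9+DEX and 625, 658 and 616 in DEX, at 1.22 ± 0.15 (SE, adjusted p = 0.000149), and SDHD had 112, 141 and 78.6 in KJ-PYR-9+DEX and 469.8, 458 and 262 in DEX, at -1.83 ± 0.28 (SE, adjusted p = 0.000332). In complex III the core pair was called in opposite directions, UQCRC1 higher by 1.02 ± 0.13 (SE, adjusted p = 0.00017) and UQCRC2 lower at -0.48 ± 0.14 (SE, adjusted p = 0.00989). UQCRHL and CYC1 were higher by 1.33 and 1.18, and UQCRB was lower at -0.88. In complex IV, COX7A1 was higher by 1.23 ± 0.24 (SE, adjusted p = 0.00129) and COX7A2 lower at -0.72 ± 0.26 (SE, adjusted p = 0.0269). NDUFA4 and COX6C were lower at -0.67 and -0.56, though the groups overlapped for NDUFA4. In complex V, ATP5F1D was higher by 1.27 ± 0.20 (SE, adjusted p = 0.000416), and of the c ring ATP5MC2 and ATP5MC3 were higher by 0.50 and 0.59. ATP5IF1, the inhibitor of the synthase, was higher by 0.46 ± 0.14 (SE, adjusted p = 0.012). ATP5MK, ATP5PF, ATP5MG, ATP5PD and the gamma subunit ATP5F1C were lower at -1.71, -1.18, -1.02, -0.97 and -0.91. With GC content and length trends removed, NDUFS7, NDUFS8, NDUFB5, NDUFC2, SDHA, SDHD, UQCRHL, COX6C, ATP5MK, ATP5PF and ATP5PD kept their calls. NDUFA5, NDUFB7, NDUFB3, UQCRC1, UQCRC2, CYC1, COX7A1, COX7A2, ATP5F1D, ATP5MC3, ATP5IF1, ATP5MG and ATP5F1C were then no longer called. ATP5MC2 and UQCRB turned round, to -0.11 and 0.25, as did UQCRQ, at 0.53 before, to -0.22, and these 3 were not called. NDUFA4 turned round to 0.37 (adjusted p = 0.0414) and NDUFB11, at 0.36 before, to -0.45 (adjusted p = 0.0432), so that both were called in the other direction.

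Against VEH, KJ-PYR-9+DEX gave 19 members higher and 5 lower, beside 18.4% and 18.2% of the genes tested (36.6% called in all). The largest rise was NDUFS7, at 1.20 ± 0.21 (SE, adjusted p = 0.00416), and the largest fall NDUFA5, at -1.36 ± 0.35 (SE, adjusted p = 0.0176). SDHA and SDHD stood at 0.89 and -1.10, and both were called. These counts changed with the libraries used. Without VEH 1, 9 members were called, all of them higher, 13 without VEH 2 and 12 without KJ-PYR-9+DEX 3. No share of all genes was set beside these counts, so a general loss of calls cannot be told from one of the members. With the replicate block 26 were called higher and 17 lower, against 27.4% and 28.0% of all genes. With GC content and length trends removed the counts were 11 and 2, against 6.45% and 5.09%, and of the calls above 6 of the 19 rises and 0 of the 5 falls were kept. NDUFA5 and SDHD were then no longer called, while NDUFS7 and SDHA were.

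DEX alone left all 78 tested members uncalled in the limma fit without the replicate block, against 17.5% of all genes tested. An unadjusted p under 0.05 was found for 14 of the 78 members, against 5145 of the 13616 genes tested. The median member log2 fold change was -0.04, beside 0.02 over all genes. edgeR called 0 members higher and 1 lower, against 11.5% and 9.89% of all genes, and DESeq2 2 higher and 5 lower, against 15% and 12.4%. With the replicate number as a block, 8 members were called higher and 11 lower, against 23.9% and 19.6% of all genes. Without DEX 3 there were 6 calls, without KJ-PYR-9+DEX 3 there were 5, and without KJ-PYR-9+DEX 1 there was 1, with no share of all genes beside these counts. The values farthest from 0 were NDUFB5 and COX7A1. NDUFB5 had 394, 338 and 173 in DEX and 169, 172 and 120.3 in VEH, at 0.90 ± 0.40 (SE, adjusted p = 0.127). COX7A1 had 18.3, 19.1 and 31.3 in DEX and 38.2, 42.7 and 34.4 in VEH, at -0.76 ± 0.24 (SE, adjusted p = 0.054). Neither gene's groups overlapped. SDHD had 469.8, 458 and 262 in DEX and 240.3, 266 and 195 in VEH, with overlap, at 0.72 ± 0.28 (SE, adjusted p = 0.0881). Members of high GC content tended to have the lower values, with a correlation of -0.77 over the 78 members and -0.54 over 13298 genes.

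The KJ-PYR-9 effect with DEX was set against the effect without it by an interaction term. No member was called in limma without the replicate block, edgeR or DESeq2, against 16.8% of all genes tested in limma. In limma, 3 of the 78 members had an unadjusted p under 0.05, against 4281 of the 13616 genes tested. The median of the difference was -0.10 over the members and -0.11 over all genes, and with quantile scaling 0.11 and 0.03. The values farthest from 0 were NDUFB5, at -1.10 ± 0.57 (SE, adjusted p = 0.215), and NDUFV2, at 0.70 ± 0.26 (SE, adjusted p = 0.0916). NDUFV2 had 64.2, 63.4 and 51.1 in KJ-PYR-9+DEX and 85.4, 72 and 59.5 in DEX, which overlapped, while it had fallen with KJ-PYR-9 against VEH. With the replicate block 1 member was called higher and 4 lower, against 12.4% and 20.0% of all genes: NDUFV2 (adjusted p = 0.00375) was the one higher, and UQCRC2 (0.00689), ATP5F1C (0.0264), NDUFB5 (0.0322) and NDUFS4 (0.0347) were lower. Without DEX 3, 1 member was called, with no share of all genes beside it.

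MB-3 for 3 h changed no member past the threshold. KAT2A itself had 348, 454 and 465 in MB3 and 415, 509 and 524 in VEH2, at -0.20 ± 0.14 (SE, adjusted p = 0.526). Of 76 members tested, 0 were called, against 0.0597% of 10048 genes (6 genes). An unadjusted p under 0.05 was found for 8 of the members and for 1377 of the 10048 genes. NDUFA7, NDUFV2, COX6B2, COX7A1 and ATP5MGL were not analysed here. The block fit also called 0, and count tests were not run in this experiment. The median member log2 fold change was 0.05, beside 0.01 over all genes. ATP5F1D had the lowest value: 655, 726 and 839 in MB3 and 1019, 1079 and 1014 in VEH2, with no overlap, at -0.49 ± 0.10 (SE, adjusted p = 0.202). NDUFS7, at 499, 621 and 678 in MB3 and 746, 771 and 730.0 in VEH2, gave -0.33 ± 0.11 (SE, adjusted p = 0.318). NDUFB5 had the highest value, at 479.6, 364 and 336 in MB3 and 295, 289 and 286 in VEH2, a log2 fold change of 0.42 ± 0.13 (SE, adjusted p = 0.287). SDHA and SDHD gave 0.05 and 0.14. Summed over the members, MB3 1 held 0.839% of the named signal, above the other MB3 libraries and VEH2 (0.728% at most).

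The 13 respiratory chain genes of the mitochondrial genome were measured in the same libraries and partly moved apart from the nuclear members. Together they took 2.30% ± 0.0351 of the named signal in siMYC and 3.06% ± 0.146 in siCtl (SD, n = 3), against 0.538% ± 0.0642 in siMYC and 0.616% ± 0.0365 in siCtl for the nuclear members. All 13 had negative values in siMYC, with a median of -0.41, beside 6757 negative values over the 14788 genes tested. Of the 13, 5 were called lower, against 4.78% of all genes tested. ATP6, a subunit of complex V, had 38627, 34758 and 34877 in siMYC and 55456, 57420.0 and 52287 in siCtl, lower at -0.61 ± 0.11 (SE, adjusted p = 0.0218). ATP8, COX3, ND4 and ND2 were the others called. With GC content and length trends removed, ATP8 stood at 0.03 and was not called. COX1, COX2, COX3 and CYTB had no transcript matched for GC content and length, so they were not part of that fit.
In DEX they took 4.74% ± 0.306 of the named signal, against 2.86% ± 0.182 in VEH. The nuclear members took 0.615% ± 0.0364 in DEX and 0.673% ± 0.0481 in VEH. Of the 13 mitochondrial genes 11 rose with DEX and 0 fell, with a median of 0.78, against 17.5% of all genes called. Of the 78 nuclear members 0 were called without the replicate block, and 8 higher and 11 lower with it. COX1, the catalytic subunit of complex IV, had 125570.0, 112200.0 and 96587 in DEX and 53713, 54109 and 50679 in VEH, higher by 1.07 ± 0.13 (SE, adjusted p = 0.000446). In KJ-PYR-9+DEX the share was 2.28% ± 0.406. All 13 genes fell against DEX, with a median of -0.99, where 35.1% of all genes tested were called lower, while the nuclear members were called in both directions. COX1 had 57879, 58750.0 and 50592 in KJ-PYR-9+DEX and was lower than in DEX at -0.99 ± 0.13 (SE, adjusted p = 0.000162). Over 13298 genes, the log2 fold changes correlated with GC content at -0.54 in DEX against VEH and 0.77 in KJ-PYR-9+DEX against DEX. The mitochondrial values of the inhibitor experiment are given with these trends left in, and the part of GC content in them was not tested.
With KJ-PYR-9 alone the share was 2.80% ± 0.113. Of the 13 genes 5 rose and 3 fell, against 25.4% and 17.5% of all genes tested. ND4L and COX2 rose by 1.02 and 0.91, and ND3 and ATP8 were lower at -1.25 and -1.21. ATP8 overlaps ATP6 in the mitochondrial genome, as ND4L does ND4, so their counts are less certain. In MB3 the share was 3.28% ± 0.321, against 3.01% ± 0.153 in VEH2, and 0 of the 13 genes were called, against 0.0597% of all genes tested.

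**Figure D4:**
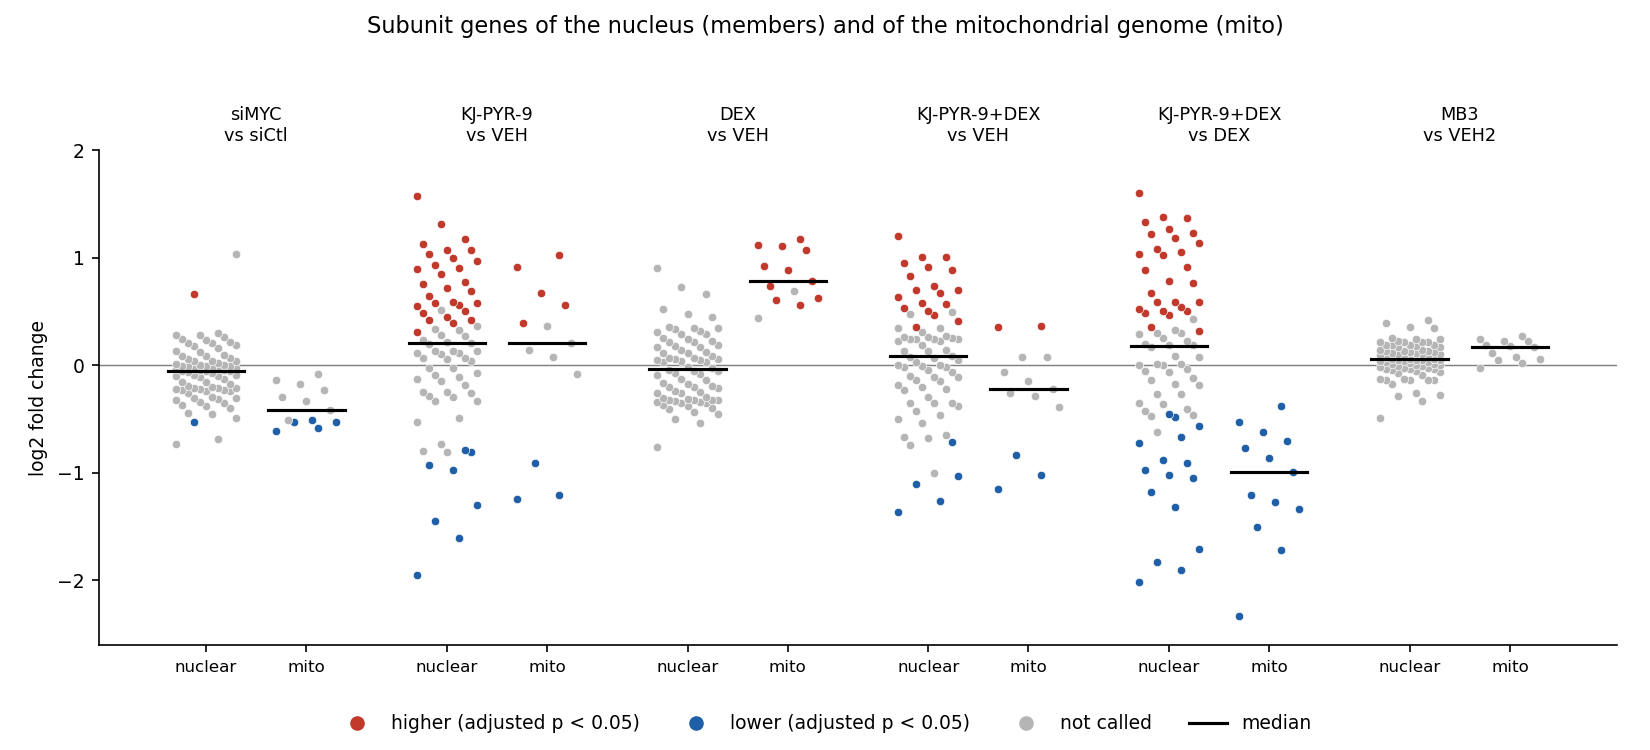
Log2 fold changes of nuclear members and of the 13 subunit genes of the mitochondrial genome (mito) in 6 comparisons, with red and blue for genes called higher and lower and black bars for medians. In DEX against VEH the mitochondrial median is 0.78 and the nuclear median -0.04, and in KJ-PYR-9+DEX against DEX they are -0.99 and 0.18.

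Genes that build the complexes, drive mitochondrial transcription or run the TCA cycle were described as further lists, which had been chosen with earlier results of these data known. In siMYC, where 4.78% of all genes were lower and 11.4% higher, 4 of 15 complex I assembly factors were lower and 0 higher, led by NDUFAF2 at -0.84 ± 0.19 (SE, adjusted p = 0.0332) and NDUFAF5 at -0.58. Of 6 complex III assembly factors 2 were lower. LYRM7, a chaperone of the Rieske iron-sulfur protein, had 276, 144 and 138 in siMYC and 553, 534 and 656 in siCtl, at -1.71 ± 0.28 (SE, adjusted p = 0.0155), and BCS1L, which inserts that protein, was at -0.66. Of 21 genes of mitochondrial biogenesis and transcription, 3 were lower and 0 higher. The coactivator PPARGC1B had 353, 413 and 331 in siMYC and 754, 632 and 711 in siCtl, at -0.94 ± 0.14 (SE, adjusted p = 0.0132), and the helicase TWNK and the RNA-binding SLIRP were at -0.71 and -0.63. COX11, a copper chaperone of complex IV, was the one of 22 assembly factors of that complex called, at -0.51, and 0 of 5 for complex V and 0 of 4 for complex II were called.
With KJ-PYR-9 against VEH, where 25.4% of all genes rose and 17.5% fell, 5 complex I assembly factors rose and 5 fell of 15. NDUFAF3 rose by 0.94 and FOXRED1 by 0.82, and TMEM126B and NDUFAF5 were lower at -0.99 and -0.81. Of 21 complex IV assembly factors 1 rose, COX14, and 4 fell, led by CMC2 at -0.86. In the biogenesis list 5 rose and 7 fell of 21. POLRMT, the mitochondrial RNA polymerase, had 1659.6, 1782 and 2087 in KJ-PYR-9 and 716, 759 and 866 in VEH, higher by 1.24 ± 0.22 (SE, adjusted p = 0.00253). TFAM, which packages mitochondrial DNA and starts its transcription, had 430.3, 432 and 335 in KJ-PYR-9 and 756, 914 and 603 in VEH, lower at -0.91 ± 0.28 (SE, adjusted p = 0.022). MTERF1 and TFB2M were lower at -1.29 and -1.04, and the transcription factors NRF1 and ESRRA rose by 0.60 and 0.69. Of 13 TCA cycle genes besides complex II, 6 rose and 1 fell. Among them IDH3G and IDH3B rose by 1.36 and 1.02, and SUCLA2 was lower at -0.80.
With KJ-PYR-9+DEX against DEX, all 15 complex I assembly factors were called, 5 higher and 10 lower, and 8 of 21 biogenesis genes were higher and 9 lower, against 33.6% higher and 35.1% lower of all genes. GABPA had 136, 145 and 27.5 in KJ-PYR-9+DEX and 702, 569.6 and 303 in DEX, at -2.58 ± 0.58 (SE, adjusted p = 0.00267). GABPA overlaps the member ATP5PF in the genome. In DEX against VEH, where 17.5% of all genes were called, 3 of 21 biogenesis genes were called, LRPPRC higher at 0.53 and TWNK and YY1 lower at -0.49 and -0.38. In MB3 no gene of these lists was called.

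Of the 81 members, 33 overlap another RefSeq gene, and strandedness of the libraries is not given in the sources used here, so reads of such pairs cannot be told apart. These include NDUFC2 with NDUFC2-KCTD14 and THRSP, NDUFA5 with ASB15, ATP5MK with TAF5, ATP5PD with KCTD2 and UQCRQ with GDF9.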

How the data were processed

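RNA depleted of ribosomal RNA was sequenced from 24 BT549 libraries in 3 experiments. The deposited values are normalized read counts per gene, a signal scaled by library, and each experiment's tables were normalized separately. Per the submitters' processing notes, bcl2fastq, SAMtools, featureCounts and DESeq2 were used with build GRCh38; versions, aligner, annotation and strand setting are not given in the sources used here. Members and lists were chosen with earlier results of these data known.

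Features without a gene name (1.62% to 26.04% of reads in the inhibitor libraries) were left out. Genes with a mean of at least 10 entered limma 3.58.1 (R 4.3.3) as log2(value + 1), with the 12 inhibitor libraries in 1 fit. P-values were adjusted by Benjamini-Hochberg over all genes tested, with a threshold of 0.05. Fold changes on this scale understate changes of low genes. Within 0.0001, 100% of the deposited values were whole multiples of 1 read, so whole reads were recovered (knockdown libraries 18.77 to 24.15 M, MB-3 libraries 8.306 to 19.96 M, inhibitor libraries 5.582 to 30.76 M). On these reads edgeR 4.0.16 called 2922 genes and DESeq2 1.42.0 3782 genes in the knockdown, and 7061 and 7224 genes for KJ-PYR-9 against VEH. Count tests were not run on the MB-3 experiment.

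Samples with the same replicate number deviated together from their group means in the inhibitor experiment (correlations 0.13 to 0.524 over 18 pairs) and in the MB-3 experiment (0.208 to 0.389 over 3 pairs), but not in the knockdown (-0.346 to -0.02 over 3 pairs). The fit without a block was kept as the main one, so it does not model the shared deviations of same-numbered libraries, and the block was an alternative. In every comparison of the inhibitor experiment the block called more members, so absence of a call there depends on the fit. Other alternatives were TMM or quantile scaling, pseudocounts of 0.5 and 5, no filter or a mean of at least 50, a trended and robust variance, removal of trends on GC content and length (splines with 4 degrees of freedom), and leaving out each library. Named genes were the called members, up to 8 in each direction by size, the extremes of each complex, the isoform genes, the targeted genes and up to 3 called genes in each direction per list. Genes named beyond this were chosen after their values were seen. On simulated data with 100 changed genes per size, the fit recovered 80% of genes changed by 1 on the log2 scale in the knockdown (14788 genes), 76% in the inhibitor (13616 genes) and 99% in the MB-3 experiment (10048 genes). The simulated counts had the same dispersion in every gene, which was not estimated from these data. They held no shared deviations of replicates and no GC trends. The rates therefore check the fit and do not measure what these libraries could detect. The NRF1 and YY1 letters searched in promoters are shortened cores, adopted after matches to longer forms had been counted; the longer forms matched fewer windows.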

Additional observations from a re-analysis of the deposited data

Results flagged for a closer look

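For 9 of the 13 respiratory chain genes of the mitochondrial genome, the KJ-PYR-9 effect with DEX (KJ-PYR-9+DEX against DEX) differed from the effect without it (KJ-PYR-9 against VEH), by the interaction term of the limma fit adjusted over all genes tested. Over all genes tested 16.8% were called, 7.15% higher and 9.62% lower. Each difference of log2 fold changes was negative, as it was for all 13 genes and for 7789 of the 13616 genes tested. In complex I it was -1.41 for ND1 (adjusted p = 0.00229), -1.58 for ND2 (0.00266), -1.70 for ND4 (0.000271) and -1.55 for ND4L (0.000241). It was -1.27 for CYTB of complex III (adjusted p = 0.000319), and -1.66 for COX1 (0.000143), -1.29 for COX2 (0.000481) and -0.77 for COX3 (0.0116) of complex IV. ATP6 of complex V gave -1.16 (adjusted p = 0.00183). In the same fit, which has no replicate block, 0 of 78 nuclear members were called. With the block, 1 nuclear member was called higher and 4 lower. The interaction values correlated with GC content at 0.34 over 13298 genes, and the part of this trend in the mitochondrial values was not tested.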

How the results depend on the processing

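The count of members called for siMYC against siCtl, 2, became 6 with TMM scaling, 4 with quantile scaling, 1 with no filter on low values, 4 with a mean of at least 50, 5 with a trended and robust variance and 8 with GC content and length trends removed. It was 9 with edgeR, 11 with DESeq2 and 0 to 5 with 1 library left out. The replicate numbers did not pair the knockdown samples, and the replicate block, alone or with GC content and length trends removed, gave 0. For KJ-PYR-9 against VEH, the 38 calls became 24 to 44 with 1 library left out, and the median of 0.20 became 0.043 with quantile scaling. For DEX against VEH, the 0 calls became 7 with quantile scaling, 1 with a trended and robust variance, 19 with the replicate block, 3 with the block and trends removed, 1 with edgeR, 7 with DESeq2 and 0 to 6 with 1 library left out. For KJ-PYR-9+DEX against VEH, the 24 calls became 13 with trends removed, 43 with the replicate block and 9 to 28 with 1 library left out. For KJ-PYR-9+DEX against DEX, the 45 calls became 29 with trends removed, and, with or without the block, ATP5MC2 reversed to -0.11, UQCRB to 0.25, UQCRQ to -0.22, NDUFA4 to 0.37 and NDUFB11 to -0.45. ATP8 in siMYC reversed to 0.0273 with trends removed, with or without the block, and ATP5F1A under KJ-PYR-9 to -0.11 with quantile scaling. For the interaction, the 0 calls became 3 with trends removed, 5 with the replicate block, 12 with both, 1 without DEX 1 and KJ-PYR-9+DEX 3, and 0 to 1 with 1 library left out. Its median of -0.10 became 0.11 with quantile scaling. Most of these counts are given without the share of all genes called in the same setting. A change of the members alone can therefore not be read from them. The cause of these differences was not tested. For the 205 pairs of a gene and a comparison, 4231 of 4718 alternative values kept their direction and side of the threshold, 335 lost the call, 113 gained it, 26 moved and 13 reversed. The fit with the block and trends removed, and the one without DEX 1 and KJ-PYR-9+DEX 3, were chosen after seeing the data. With 3 libraries a group and as few as 5.582 M reads, small changes of low members may have gone undetected, which was not tested.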
